A study of Mus musculus with 9 samples.

Results

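The genes described here encode subunits of the BAF complex in its progenitor and neuronal forms. The members were chosen by name for their role in the complex, as the 10 exact gene symbols Actl6a, Actl6b, Phf10, Dpf1, Dpf3, Ss18, Ss18l1, Smarca2, Smarca4 and Smarcc1, of 38197 symbols in the deposited tables. All 10 were in the tables, and all 10 passed the filter on low counts that left 14742 genes for testing. The cells were wild-type mouse embryonic stem cells of strain 129, grown as a monolayer and given retinoic acid (RA) and the Smoothened agonist SAG. By the labels this treatment ran from 0 to 3 DDC (days in differentiation conditions), and the published methods place its end later. Cells were sorted for Prominin-1, which neural progenitors carry on their surface. Libraries of polyadenylated RNA came from cells at 4.5DDC, 5.5DDC and 6.5DDC, in 3 replicates each, which makes 9 libraries. One label field gives these times as 4.5, 5.5 and 6.5 days and another as 4, 5 and 6 days. Total counts per library ran from 11066572 to 25506192, with a median of 14390493.

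BAF complexes, the mammalian relatives of yeast SWI/SNF, use the energy of ATP to slide and evict nucleosomes and so open chromatin at enhancers and promoters. In dividing neural progenitors the complex carries the actin-related subunit encoded by Actl6a, the PHD finger subunit encoded by Phf10 and the subunit encoded by Ss18. When progenitors leave the cell cycle and become neurons, these are replaced by the products of Actl6b, of Dpf1 or Dpf3, and of Ss18l1, and the exchange is known to be needed for dendrite growth. Smarca4 and Smarca2 encode alternative ATPases of the complex, and Smarcc1 encodes a scaffold subunit with the related Smarcc2 as its alternative. The comparisons below ask how far transcripts of the progenitor and neuronal subunits shifted in sorted progenitors over the time window in which motor neuron production gives way to serotonergic neuron production.

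From 4.5DDC to 6.5DDC, transcripts of the progenitor actin-related subunit Actl6a, the ATPase Smarca4 and the scaffold Smarcc1 fell. Their calls were lost under 10, 3 and 12 of 23 alternative settings in that order, and within replicate 1 the log2 change of Actl6a was -0.01. No neuronal subunit passed the test over the same span, nor did the alternative ATPase Smarca2. Mean FPKM at 6.5DDC was higher for Actl6b, Dpf3, Ss18l1 and Smarca2 and lower for Dpf1. Of the 10 members, 3 were called at an adjusted p under 0.05, all of them lower, while 18.7% of all genes tested were called, 9.21% as higher and 9.53% as lower. The members' share of 30% rests on 10 genes, and its difference from the background was not tested. The median log2 fold change of the members was -0.15, beside 0.00 over all genes tested. In the shorter intervals edgeR called 0 of 10 members, against 0.0746% of all genes in the first interval, which ends at 5.5DDC, and 0.224% in the second. At an unadjusted p under 0.05 the member counts were 3, 1 and 6 for the first interval, the second interval and the whole span, beside 2275, 2733 and 5218 of the 14742 genes.

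The calls in the shorter intervals were few for the genome as a whole. A block for the replicate number gave 212 calls (1.44%) in the first interval in place of 11, and 195 calls (1.32%) in the second in place of 33. No member was called in either shorter interval with the block, nor under any other setting tried, DESeq2 and limma among them. The members' median log2 fold change was -0.07 in the first interval and 0.05 in the second.

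Replicate 1 stood apart from replicates 2 and 3 before any member was considered. The summed FPKM of 17 pan-neuronal genes was 306 in replicate 1, 839 in replicate 2 and 555 in replicate 3 at 4.5DDC. At 5.5DDC the sums were 256, 986 and 988, and at 6.5DDC they were 521, 1146 and 1233, in the same order of replicates. Replicate 1 was thus lowest in neuronal transcripts at every time point, so results are given below within replicate 1, within replicates 2 and 3, and without replicate 1. The counts of 5.5DDC replicates 2 and 3 also lay far closer to each other than those of any other libraries of 1 time point, with a chi-square per degree of freedom of 2.58 against 25.5 to 67.4 for the other pairs. They were kept as separate libraries, and nothing in the labels says that the 9 libraries came from separate cultures, so the p-values measure only the spread between these libraries.

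Levels are given as FPKM, fragments scaled to transcript length and library size, which allows genes of different length to be set side by side as far as the transcript models hold. At 4.5DDC the order of mean FPKM was Phf10, Actl6a, Smarca4, Smarcc1, Ss18, Dpf1, Smarca2, Ss18l1, Dpf3 and Actl6b. The first 4 lay between 77.3 and 89.2 FPKM with overlapping libraries, and the last 3 lay between 2.7 and 4.82 FPKM. The progenitor forms were thus more abundant than their neuronal counterparts. At 6.5DDC the order was Phf10, Smarcc1, Actl6a, Smarca4, Ss18, Smarca2, Dpf1, Ss18l1, Actl6b and Dpf3. Phf10, at 69.2 FPKM, no longer overlapped with the next gene, Smarcc1 at 51.4 FPKM, whereas Smarcc1, Actl6a and Smarca4 still overlapped in that order. Ss18l1, Actl6b and Dpf3 also overlapped from each to the next at 6.5DDC. Part of this order depends on the scale. In CPM (counts scaled to the library total) per kilobase of the longest coding transcript, Smarca2 had a mean of 5.92 over the 9 libraries and Ss18l1 a mean of 8.02, whereas their mean FPKM was 22.6 and 6.32.

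**Figure D1:**
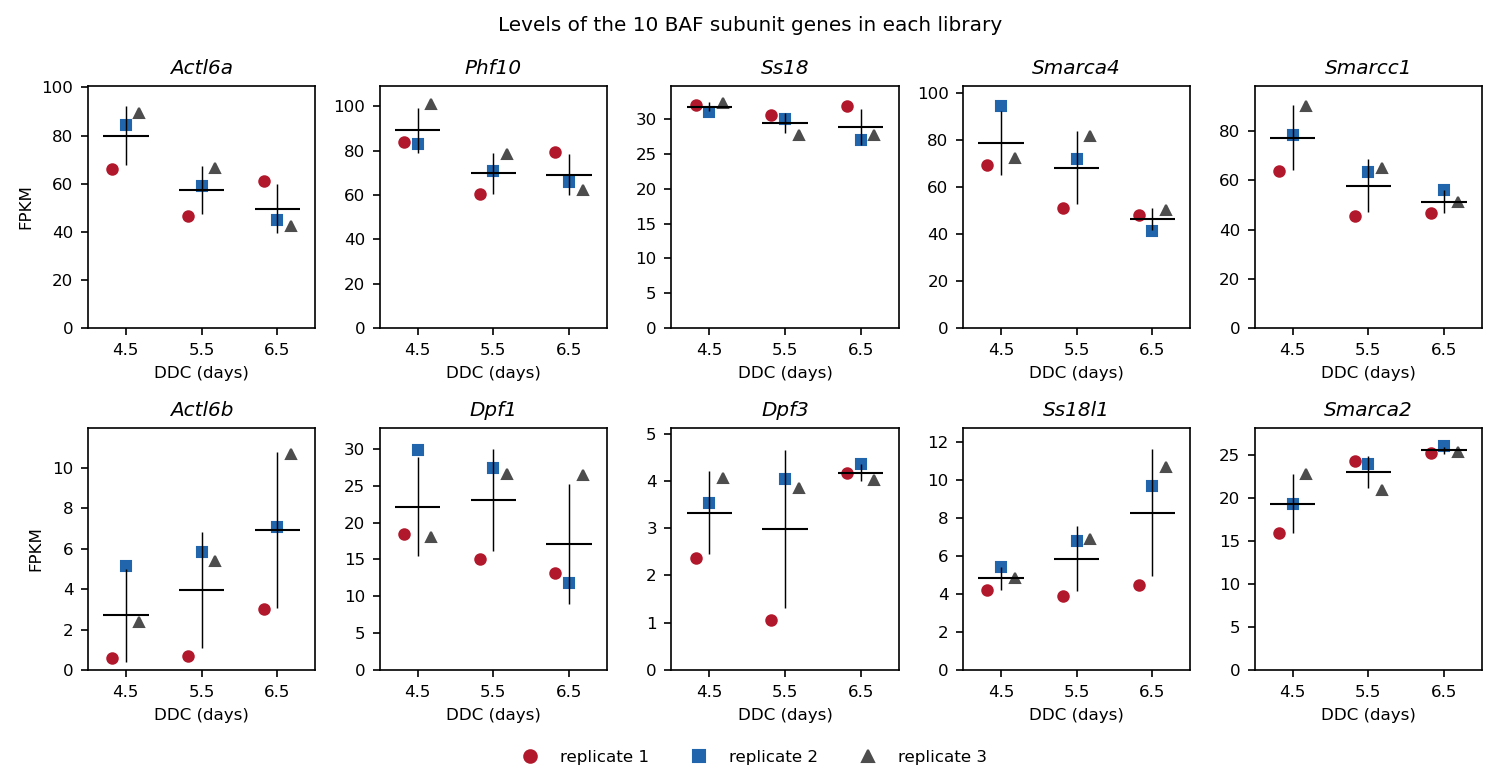
FPKM (y axis) of each of the 10 BAF subunit genes against time in DDC (x axis), with 1 point per library, a horizontal line at the mean of 3 libraries and a vertical line of 1 SD to each side. Progenitor subunits and the main ATPase and scaffold are in the upper row, and replicate 1 is the lowest library at each time point for Actl6b and Ss18l1.

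Actl6a encodes the actin-related subunit of the progenitor complex, and its repression in new neurons by microRNAs is a known step of the exchange. The gene (ENSMUSG00000027671.14) lies at chr3:32706298-32726973 on the plus strand of GRCm38. Its FPKM in replicates 1, 2 and 3 was 66.1, 84.4 and 89.4 at 4.5DDC, 46.5, 59.0 and 66.4 at 5.5DDC, and 61.2, 44.9 and 42.5 at 6.5DDC. All 3 libraries of 6.5DDC were below all 3 of 4.5DDC, and at 6.5DDC replicate 1 was the highest library. The mean went from 79.9 ± 12.3 to 49.5 ± 10.1 FPKM (SD, n = 3), and the transcript fell by 0.76 on the log2 scale (SE 0.23, edgeR adjusted p = 0.0471). The fall was in replicates 2 and 3 and not in replicate 1: the log2 change was -1.15 within replicates 2 and 3 and -0.01 within replicate 1. Without replicate 1 the adjusted p was 0.0011. In the first interval the log2 change was -0.59 (SE 0.23, edgeR adjusted p = 0.273), and from 5.5DDC to 6.5DDC it was -0.17 (SE 0.23, edgeR adjusted p = 0.719). For these 2 intervals the values were -0.60 and -0.55 within replicates 2 and 3, and -0.57 and 0.57 within replicate 1.

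The Actl6a call was close to the threshold and was lost under 10 of 23 alternatives. Among these were the fits without replicate 2 (adjusted p = 0.14) or replicate 3 (0.121) of 4.5DDC, replicate 2 (0.0725) or replicate 3 (0.0616) of 5.5DDC, and replicate 2 (0.157) or replicate 3 (0.124) of 6.5DDC, and over all 23 the adjusted p ran from 0.0011 to 0.157. In addition, 11.6% of the exonic bases of Actl6a overlap exons of Mrpl47 on the opposite strand, and the strand setting of the counting was not given in the sources used here. Fewer cells with a high level and less RNA per cell cannot be told apart in bulk RNA, here or for any gene below.

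A microRNA arm known to target Actl6a in neurons, miR-9-3p, and the matches to its seed in the members are shown as a sequence feature linked to this known repression. Matches are given for the arms of miR-9 alone. The mature sequence is from RefSeq (GRCm38.p6), as encoded for example by Mir9-2 at chr13:83738858-83738879 on the plus strand, with the seed, bases 2 to 8, in capitals. The 4 stretches with a seed match come from the longest annotated 3′ UTR of each gene in GENCODE M21, on the plus strand of GRCm38, with the 7 bases that match the seed, AGCTTTA, in capitals. They lie at chr3:32726625-32726650 in Actl6a, chr19:26777487-26777512 in Smarca2, and chr9:110238598-110238623 and chr9:110239426-110239451 in Smarcc1.
mmu-miR-9-3p: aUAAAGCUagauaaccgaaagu
Actl6a: cacctcaacgtctgtAGCTTTAgtac
Smarca2: ttgtcatctagaactAGCTTTAgggt
Smarcc1, first match: gatagcaaagagcacAGCTTTAcaac
Smarcc1, last match: ttatgtgtattttaaAGCTTTAtgta

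Of the 10 members, 3 held AGCTTTA on the transcript strand of the 3′ UTR, while 11.3% of 21020 genes did. The match in Actl6a began at base 38 of a 3′ UTR of 371 bases, and 2.65% of the 1963 genes with a 3′ UTR of 80 to 125% of that length held one. For Smarca2 (952 bases) the corresponding share was 7.56%, and for Smarcc1 (2396 bases) it was 19.7%. Smarca2 thus carried the same match as Actl6a and Smarcc1, and the part of these matches in the levels of the 3 genes was not tested. The other arm, miR-9-5p, had no seed match (ACCAAAG) in the 3′ UTR of any member. A match of this kind is a description of the letters and not a measured site.

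Actl6b encodes the actin-related subunit that takes the place of the Actl6a product in postmitotic neurons. The gene (ENSMUSG00000029712.14) lies at chr5:137553517-137569582 on the plus strand. Replicates 1, 2 and 3 had an FPKM of 0.582, 5.15 and 2.38 at 4.5DDC, 0.682, 5.86 and 5.38 at 5.5DDC, and 3.0, 7.09 and 10.7 at 6.5DDC. Replicate 1 was the lowest library at every time point, and its 6.5DDC value lay below replicate 2 of 4.5DDC, so the groups overlapped. Counts behind these values were low, from 18 to 305 per library. The mean was 2.7 ± 2.3 FPKM at 4.5DDC and 6.93 ± 3.86 FPKM at 6.5DDC (SD, n = 3), with a log2 change of 1.86 (SE 0.80) that did not pass the test (edgeR adjusted p = 0.129). The log2 change was 2.39 within replicate 1 and 1.80 within replicates 2 and 3. Without replicate 1 the log2 change was 1.75 and the adjusted p was 0.012, within a range of 0.0035 to 0.379 over the alternatives. The difference between the fits with and without replicate 1 was not itself tested.

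The promoters of Actl6a and Actl6b are shown because these 2 genes form the pair that the exchange is best known for. Each is the 250 bases before the RefSeq start (GRCm38.p6, plus strand), chr3:32708296-32708545 for Actl6a and chr5:137553296-137553545 for Actl6b. GENCODE M21 also places a start of Actl6a upstream of that window. Capitals mark the GC box GGGCGG or its reverse complement CCGCCC.
Actl6a: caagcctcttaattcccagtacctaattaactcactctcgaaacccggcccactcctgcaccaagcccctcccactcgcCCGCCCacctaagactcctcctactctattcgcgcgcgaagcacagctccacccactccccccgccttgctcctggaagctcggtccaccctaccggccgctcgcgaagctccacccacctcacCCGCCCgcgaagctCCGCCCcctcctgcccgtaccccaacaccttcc
Actl6b: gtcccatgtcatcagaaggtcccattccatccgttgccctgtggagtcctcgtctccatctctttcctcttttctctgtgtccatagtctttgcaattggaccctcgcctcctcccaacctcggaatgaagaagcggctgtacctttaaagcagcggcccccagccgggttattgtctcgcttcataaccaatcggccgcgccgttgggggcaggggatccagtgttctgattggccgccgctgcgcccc

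The Actl6a window held 3 GC boxes and the Actl6b window 0, with 64.8% and 58.0% G and C. The ratio of observed to expected CpG was 1.05 for Actl6a and 0.74 for Actl6b. Among the 9 members with a promoter in the table, 8 held a GC box on either strand, while 32.7% of all 32851 promoters of that length did. Their G and C content ran from 58.0 to 88.4% (median of all promoters 52.4%) and their CpG ratio from 0.74 to 1.10 (median of all promoters 0.37). Actl6b was thus the single member of the 9 without a GC box, and it had the lowest G and C content and the lowest CpG ratio of them. Dpf3 was close to it in both (58.8% and 0.77), and Smarcc2, which is not a member, held 0 GC boxes as well. A motif that is missing from these windows says nothing about the factors that bind there.

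Phf10 encodes the PHD finger subunit of the progenitor complex. The gene (ENSMUSG00000023883.13) lies at chr17:14945009-14961273 on the minus strand. The FPKM values of replicates 1, 2 and 3 were 84.1, 82.9 and 101 at 4.5DDC, 60.3, 70.7 and 78.5 at 5.5DDC, and 79.5, 66.0 and 62.2 at 6.5DDC. The 4.5DDC libraries lay above all libraries of the later time points, while 5.5DDC and 6.5DDC overlapped. In counts the log2 change from 4.5DDC to 6.5DDC was -0.23 (SE 0.13, edgeR adjusted p = 0.244). Within replicate 1 it was -0.11, and within replicates 2 and 3 it was -0.29. Of its exonic bases, 9.56% overlap 1600012H06Rik on the opposite strand.

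Dpf1 and Dpf3 encode the double PHD finger subunits that replace the Phf10 product in neurons. Dpf1 (ENSMUSG00000030584.14) lies at chr7:29303951-29318243 on the plus strand. Its FPKM in replicates 1, 2 and 3 was 18.4, 29.9 and 18.1 at 4.5DDC, 15.1, 27.4 and 26.6 at 5.5DDC, and 13.1, 11.8 and 26.4 at 6.5DDC. High and low libraries were mixed at each time point and the groups overlapped throughout. The log2 change from 4.5DDC to 6.5DDC was -0.15 (SE 0.34, edgeR adjusted p = 0.779), and its sign was positive without replicate 2 of 4.5DDC (0.10), replicate 1 of 6.5DDC (0.02) or replicate 2 of 6.5DDC (0.02). Among the neuronal forms Actl6b, Dpf1, Dpf3 and Ss18l1, Dpf1 had the highest mean FPKM at every time point, and it was not higher at 6.5DDC. That rank holds in FPKM alone, since in CPM per kilobase Ss18l1 had the higher mean at 6.5DDC.

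Dpf3 (ENSMUSG00000021221.15) lies at chr12:83213745-83487716 on the minus strand and is also known from heart and muscle development. Replicates 1, 2 and 3 had an FPKM of 2.36, 3.54 and 4.07 at 4.5DDC, 1.05, 4.04 and 3.84 at 5.5DDC, and 4.16, 4.36 and 4.01 at 6.5DDC. In counts scaled to library totals, replicate 1 was the lowest library at every time point (counts of 75, 140 and 149 at 6.5DDC), although the FPKM values of 6.5DDC lay close together, and FPKM ran from 1.39 to 2.96 times CPM per kilobase. In FPKM the groups of 4.5DDC and 6.5DDC overlapped by a single pair of near-equal values. The log2 change over the whole span was 0.62 (SE 0.49, edgeR adjusted p = 0.397). Replicate 1 alone gave 1.25, and replicates 2 and 3 gave 0.42.

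Ss18, known for the fusion gene of synovial sarcoma, encodes the progenitor subunit that is exchanged for the product of Ss18l1, a calcium-responsive transactivator needed for dendrite growth. Ss18 (ENSMUSG00000037013.16) lies at chr18:14624198-14682914 on the minus strand. The FPKM values of replicates 1, 2 and 3 were 32.0, 31.1 and 32.4 at 4.5DDC, 30.6, 30.0 and 27.8 at 5.5DDC, and 31.9, 27.0 and 27.8 at 6.5DDC. These values lay within a narrow band, the narrowest in proportion of any member. The 6.5DDC library of replicate 1 lay among the 4.5DDC libraries. The log2 change over the whole span was -0.15 (SE 0.12, edgeR adjusted p = 0.389).

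Ss18l1 (ENSMUSG00000039086.9) lies at chr2:180042509-180070201 on the plus strand. Its FPKM in replicates 1, 2 and 3 was 4.19, 5.44 and 4.84 at 4.5DDC, 3.88, 6.8 and 6.9 at 5.5DDC, and 4.46, 9.68 and 10.7 at 6.5DDC. Replicates 2 and 3 were higher at each later time point, while replicate 1 stayed between 3.88 and 4.46 FPKM and made the groups overlap. The log2 change from 4.5DDC to 6.5DDC was 0.76 (SE 0.32, edgeR adjusted p = 0.118). It was 0.15 in replicate 1 and 0.94 in replicates 2 and 3. Without replicate 1 the log2 change was 0.94 and the adjusted p was 0.0032, within a range of 0.0032 to 0.314 over the alternatives. Ss18l1 thus split by replicate in the same way as Actl6a, in the opposite direction.

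**Figure D2:**
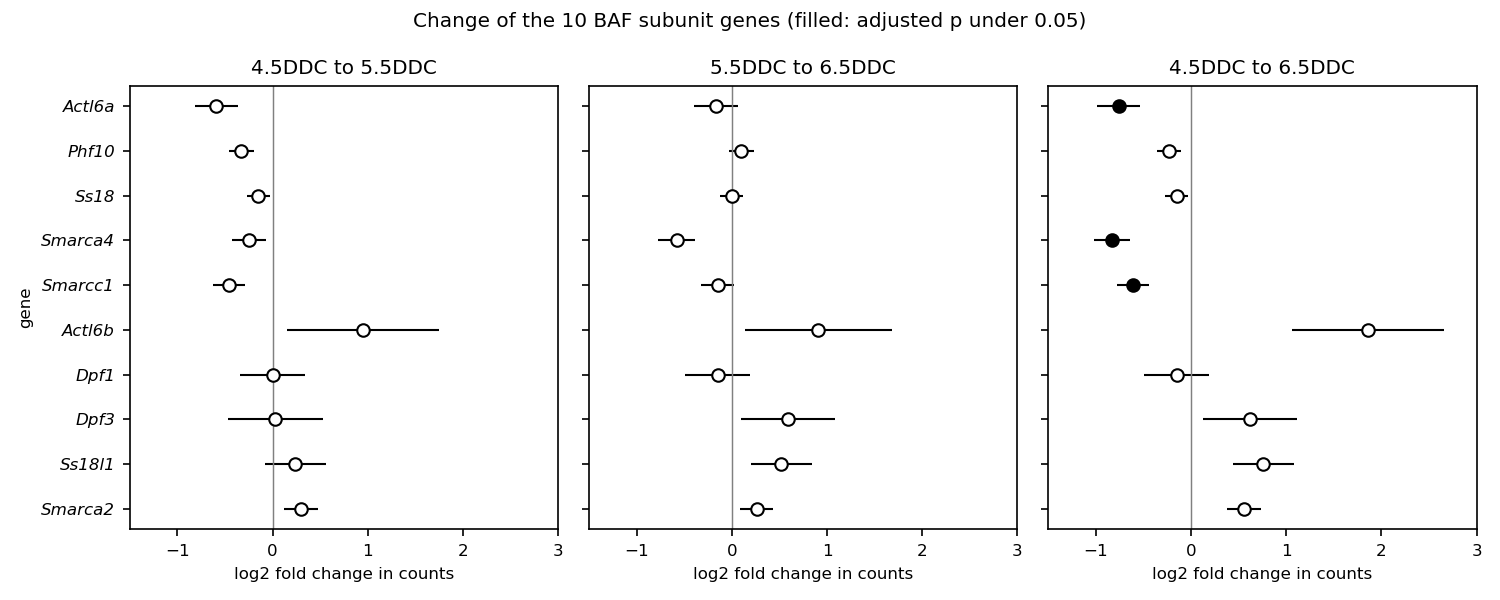
Log2 fold change in counts (x axis) of each BAF subunit gene (y axis) for 3 pairs of time points, with bars of 1 standard error and filled points for an edgeR adjusted p under 0.05. Filled points appear in the whole span alone, for Actl6a, Smarca4 and Smarcc1, and the widest bars belong to Actl6b.

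Smarca4 encodes the ATPase that predominates in embryonic stem cells and neural progenitors. The gene (ENSMUSG00000032187.16) lies at chr9:21616169-21704230 on the plus strand. Replicates 1, 2 and 3 had an FPKM of 69.4, 94.3 and 72.2 at 4.5DDC, 51.0, 71.8 and 81.6 at 5.5DDC, and 47.8, 41.2 and 50.2 at 6.5DDC. All 6.5DDC libraries lay below every library of the earlier time points. The mean went from 78.6 ± 13.7 to 46.4 ± 4.65 FPKM (SD, n = 3), and the transcript fell by 0.83 on the log2 scale (SE 0.19, edgeR adjusted p = 0.0153). All 3 replicates were lower, with a log2 change of -0.58 within replicate 1 and -0.95 within replicates 2 and 3. The log2 change was -0.25 (SE 0.18, edgeR adjusted p = 0.561) to 5.5DDC and -0.58 (SE 0.19, edgeR adjusted p = 0.179) from there on. For these 2 intervals it was -0.36 and -0.21 within replicate 1, and -0.19 and -0.75 within replicates 2 and 3.

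Smarca4 was also the single member called for any difference between the 3 time points (edgeR adjusted p = 0.0447), while 9.63% of all genes were. Leaving out replicate 2 of 4.5DDC ended its call over the whole span (adjusted p = 0.0567), as did leaving out replicate 2 of 6.5DDC (adjusted p = 0.0687) and 1 further alternative. The adjusted p ran from 0.000584 to 0.0687 over all 23 alternatives, and it was 0.00775 without replicate 1. None of its exonic bases overlap another gene on the opposite strand.

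Smarca2 encodes the alternative ATPase, which is more abundant in differentiated cells. The gene (ENSMUSG00000024921.17) lies at chr19:26605050-26778322 on the plus strand. The FPKM values of replicates 1, 2 and 3 were 15.9, 19.3 and 22.8 at 4.5DDC, 24.3, 23.9 and 20.9 at 5.5DDC, and 25.2, 26.0 and 25.3 at 6.5DDC. In FPKM the 6.5DDC libraries lay close together and above every library of the earlier time points. The mean was 19.4 ± 3.44 FPKM at 4.5DDC and 25.5 ± 0.475 FPKM at 6.5DDC (SD, n = 3), with a log2 change in counts of 0.56 (SE 0.18) that just missed the threshold (edgeR adjusted p = 0.0525). All 3 replicates were higher, with 0.77 within replicate 1 and 0.47 within replicates 2 and 3. It passed under 9 of 23 alternatives, DESeq2 among them (adjusted p = 0.018), and the adjusted p ran from 0.018 to 0.154.

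Smarcc1 encodes a scaffold subunit on which the core of the complex assembles. The gene (ENSMUSG00000032481.17) lies at chr9:110117708-110240178 on the plus strand. Its FPKM in replicates 1, 2 and 3 was 63.7, 78.2 and 90.0 at 4.5DDC, 45.4, 63.2 and 64.9 at 5.5DDC, and 46.8, 56.2 and 51.1 at 6.5DDC. All 6.5DDC libraries lay below all 4.5DDC libraries, and those of 5.5DDC overlapped with both. The mean went from 77.3 ± 13.2 to 51.4 ± 4.73 FPKM (SD, n = 3), and the transcript fell by 0.61 on the log2 scale (SE 0.17, edgeR adjusted p = 0.0363). All 3 replicates were lower, with -0.41 within replicate 1 and -0.69 within replicates 2 and 3. The log2 change was -0.46 (SE 0.17, edgeR adjusted p = 0.257) to 5.5DDC and -0.15 (SE 0.17, edgeR adjusted p = 0.663) from there to 6.5DDC.

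The Smarcc1 call was lost under 12 of 23 alternatives, among them the fits without replicate 2 (adjusted p = 0.102) or replicate 3 (0.102) of 4.5DDC, replicate 2 (0.0605) or replicate 3 (0.0553) of 5.5DDC, and replicate 1 (0.0747), replicate 2 (0.0685) or replicate 3 (0.0922) of 6.5DDC. Without replicate 1 at all time points it was 0.012, and over the 23 it ran from 0.00768 to 0.102. Without replicate 1, 5 members were called, Actl6a, Smarca4 and Smarcc1 lower and Actl6b and Ss18l1 higher, while 31.3% of 14638 genes were called. On that subset of libraries an actin-related subunit and its neuronal counterpart thus passed the test in opposite directions. With 5.5DDC replicates 2 and 3 summed to 1 library, a setting chosen after seeing the data, Smarca4 alone was called.

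In FPKM, 5 members had no overlap between the libraries of 4.5DDC and 6.5DDC, beside 34.5% of all genes tested. Actl6a, Phf10, Smarca4 and Smarcc1 were lower (16.7% of all genes were), and Smarca2 was higher (17.9% of all genes were). From 4.5DDC to 5.5DDC the members without overlap were Phf10 and Ss18, both lower, beside 23.8% of all genes. From 5.5DDC to 6.5DDC they were Smarca2, higher, and Smarca4, lower, beside 24.0% of all genes.

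The share that 1 gene takes of the summed FPKM of its pair shows the balance within each library, and it is given as a description without a test. For Actl6b in the pair with Actl6a, the share in replicates 1, 2 and 3 was 0.873, 5.75 and 2.59% at 4.5DDC, 1.45, 9.03 and 7.5% at 5.5DDC, and 4.67, 13.6 and 20.1% at 6.5DDC. The mean share was 3.07 ± 2.48% at 4.5DDC and 12.8 ± 7.76% at 6.5DDC (SD, n = 3), and the mean ratio of Actl6b to Actl6a at 6.5DDC was 4.75 times that at 4.5DDC in FPKM and 7.19 times in CPM per kilobase. Between libraries of the same number, the folds for replicates 1, 2 and 3 were 5.57, 2.59 and 9.46 in FPKM. In CPM per kilobase they were 5.84, 3.98 and 15.7. The numbers of replicates 2 and 3 did not pair libraries over this span, so the single folds of these 2 replicates rest on an arbitrary match. Actl6a still made up most of the pair in every library. Replicate 1 of 6.5DDC lay below replicate 2 of 4.5DDC, so the groups overlapped in FPKM, though not in CPM per kilobase.

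For Smarca2 in the pair with Smarca4, the share in replicates 1, 2 and 3 was 18.7, 17.0 and 24.0% at 4.5DDC, 32.2, 25.0 and 20.4% at 5.5DDC, and 34.5, 38.7 and 33.5% at 6.5DDC. The 6.5DDC libraries lay above all others, with a mean of 35.6 ± 2.78% against 19.9 ± 3.66% at 4.5DDC (SD, n = 3). The ratio of Smarca2 to Smarca4 went from a mean of 0.25 to 0.554 in FPKM and from 0.0629 to 0.164 in CPM per kilobase. The direction was the same on both scales, while the level of the ratio was not, because FPKM of Smarca2 was on average 3.86 times its CPM per kilobase and that of Smarca4 was 1.04 times. The share of Smarca2 in the summed transcripts of this pair therefore depends on the scale, and the reason for the difference between scales was not tested.

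The mean share of Ss18l1 in the pair with Ss18 was 13.2 ± 1.68% at 4.5DDC and 22.2 ± 8.6% at 6.5DDC (SD, n = 3), and the groups overlapped because replicate 1 of 6.5DDC was at 12.3%. The mean share of Dpf3 in the pair with Phf10 was 3.57 ± 0.739% and 5.74 ± 0.672% (SD, n = 3), without overlap in FPKM and with overlap in CPM per kilobase. For Dpf1 in the pair with Phf10 the mean shares were 19.9 ± 5.88% and 19.7 ± 8.74% (SD, n = 3), with overlap. Behind these means the shares of single libraries ran from 15.2 to 26.5% at 4.5DDC and from 14.2 to 29.8% at 6.5DDC.

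Smarcc2, the alternative scaffold, is not among the 10 members but completes the pair with Smarcc1. Its share was 32.7, 32.7 and 28.3% in replicates 1, 2 and 3 of 4.5DDC, 43.7, 39.5 and 40.5% at 5.5DDC, and 39.3, 39.8 and 47.9% at 6.5DDC. The later libraries all lay above those of 4.5DDC, on both scales between 4.5DDC and 6.5DDC. The log2 change of Smarcc2 itself was 0.11 (SE 0.16, edgeR adjusted p = 0.668), so Smarcc1 was the gene of this pair that passed the test.

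**Figure D3:**
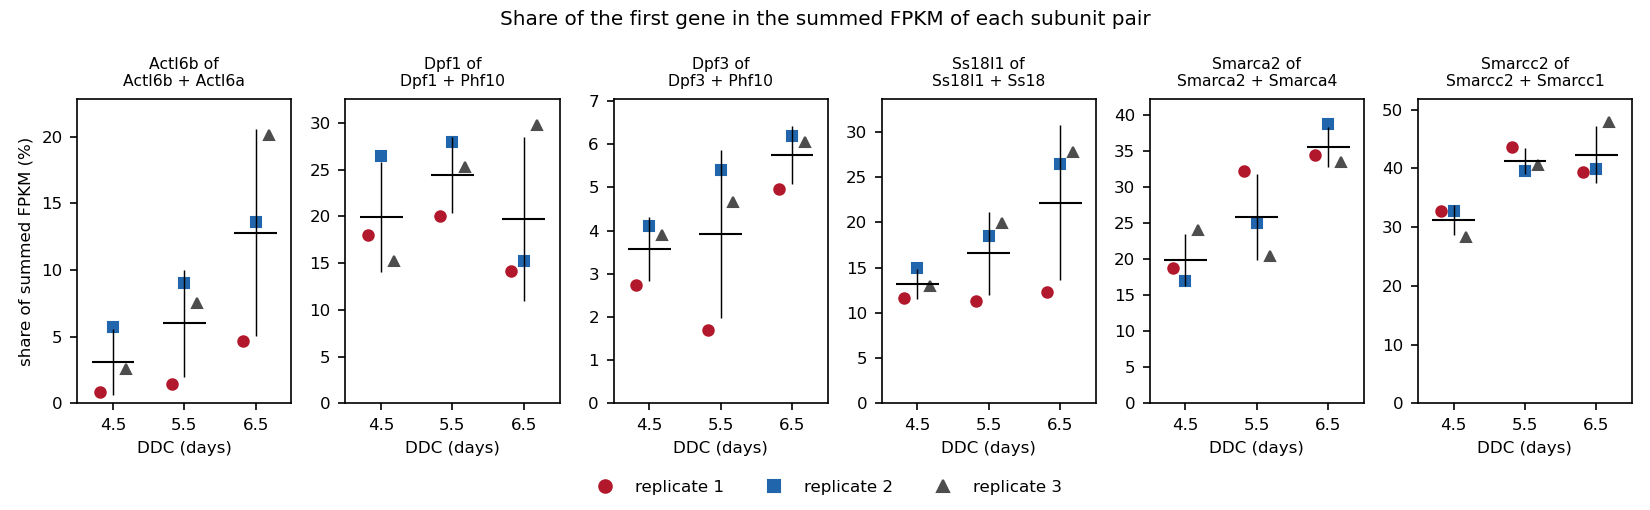
Share (y axis, %) of the first named gene in the summed FPKM of each of 6 subunit pairs against time in DDC (x axis), with 1 point per library, a horizontal line at the mean of 3 libraries and a vertical line of 1 SD to each side. The Smarca2 share at 6.5DDC lies above all earlier libraries, and the Actl6b share spreads from 4.67 to 20.1% at 6.5DDC.

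Over the 9 libraries, Pearson's r of log2(FPKM + 1) was 0.93 for Actl6a with Phf10, 0.84 for Actl6a with Smarcc1 and 0.80 for Actl6a with Smarca4. Actl6b and Ss18l1 had an r of 0.89, and Ss18 and Ss18l1 had an r of -0.87. Dpf1 had an r of 0.40, 0.20 and 0.24 with the neuronal Actl6b, Dpf3 and Ss18l1, and of 0.76 with Smarca4, so role and profile did not go together throughout. For Actl6a with Actl6b it was -0.23, so the levels of the exchanged pair were only weakly opposed across libraries. These values describe 9 libraries that share the time course and the difference between replicate 1 and the others.

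The genes whose profile was most like that of Actl6b, among 12072 genes, were Atcay (r = 0.992), Dusp8 (0.988), Cdk5r1 (0.984), Dpysl3 (0.983) and L1cam (0.982) over the 9 libraries. Cdk5r1 encodes the neuronal activator of Cdk5, and Dpysl3 and L1cam are known from axon growth. Those most like Actl6a were Ipo5 (0.988), Uchl5 (0.986), Gm9531 (0.984), Gm14857 (0.982) and Kpnb1 (0.980). Ipo5 and Kpnb1 encode importins, which carry proteins into the nucleus, and Gm9531 and Gm14857 are annotated as processed pseudogenes in GENCODE.

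Neuronal and proliferation markers were measured beside the members. Of 17 pan-neuronal genes analysed, 2 rose from 4.5DDC to 6.5DDC, the synaptic vesicle gene Syt1 (log2 fold change 3.19, SE 0.36, edgeR adjusted p = 0.00133) and the dendritic gene Map2 (1.65, SE 0.31, edgeR adjusted p = 0.00768). These are 11.8% of the list, near the 9.21% of all genes called higher. The median log2 fold change of the list was 0.78, its most abundant gene was Gap43 at a mean of 121 FPKM, and none of its genes was at 0 in all libraries. Without replicate 1, 7 of the 17 were called higher, and 2415 of the 14638 genes of that fit were. Actl6b and this sum had the same order of replicates 1 and 2 at each time point, with replicate 1 lowest, and the part of neuronal RNA in the Actl6b values was not tested.

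All 14 proliferation genes fell, with a median log2 fold change of -1.45. Their summed FPKM in replicates 1, 2 and 3 was 1617, 1875 and 1969 at 4.5DDC, and 1018, 1276 and 1294 at 5.5DDC, and the most abundant was Top2a at a mean of 230 FPKM. At 6.5DDC the mean sum was 730 ± 213 (SD, n = 3), and replicate 1 was the highest library at 938, as it was for Actl6a. Between 4.5DDC and 6.5DDC the log2 change of the 14 genes ran from -1.34 (the licensing factor Mcm5) to -0.45 (Ccna2) within replicate 1, and from -2.55 (Mcm5) to -1.40 (Ccna2) within replicates 2 and 3. The fall of Actl6a, Smarca4 and Smarcc1 thus came with a larger median fall of proliferation genes, whose part in it was not tested.

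**Figure D4:**
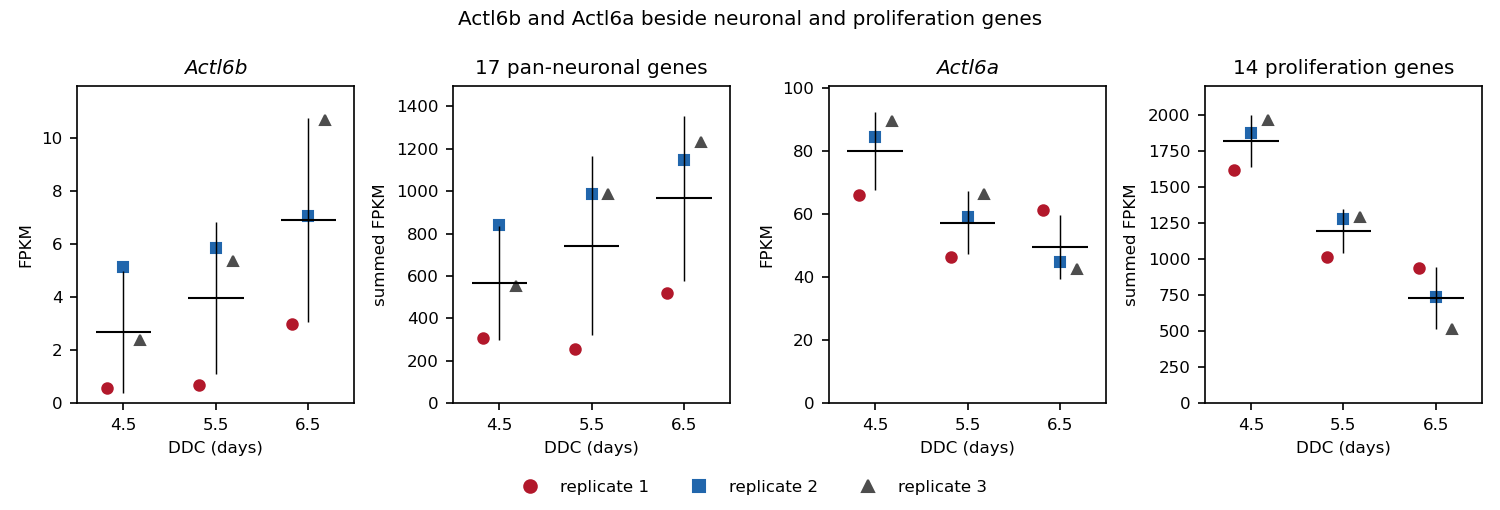
FPKM of Actl6b and Actl6a and summed FPKM of 17 pan-neuronal and 14 proliferation genes (y axes) against time in DDC (x axes), with 1 point per library, a horizontal line at the mean of 3 libraries and a vertical line of 1 SD to each side. Replicate 1 is lowest for Actl6b and the neuronal sum at each time point, and highest at 6.5DDC for Actl6a and the proliferation sum.

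The label of the sorted cells was checked on 12 neural progenitor genes, whose summed FPKM lay between 2298 and 3347 in the 9 libraries, with Vim the most abundant at a mean of 1791 FPKM. Prom1, the gene of the sorting antigen, rose (log2 fold change 1.19, SE 0.18, edgeR adjusted p = 0.00363), and Sox3 fell (-1.80, SE 0.49, edgeR adjusted p = 0.033). The other 10 did not pass the test, Sox2 (0.09) and Nes (-0.05) among them. Larger changes that also missed it were those of Hes5 (-2.10, edgeR adjusted p = 0.0522), Pax6 (-1.85, edgeR adjusted p = 0.0575) and Fabp7 (1.08, edgeR adjusted p = 0.126). Without replicate 1 their edgeR adjusted p was 0.0604, 0.00135 and 0.0143. At an unadjusted p under 0.05 the count was 7 of the 12 genes. Of 5 motor neuron genes analysed, Isl1 (-2.44, SE 0.31, edgeR adjusted p = 0.00173) and Phox2a (-2.15, SE 0.43, edgeR adjusted p = 0.01) fell. Of 6 serotonergic genes, 5 rose, among them Fev (5.14, SE 0.77, edgeR adjusted p = 0.00311). Its counts at 4.5DDC were 0, 1 and 2, under the floor of 3 counts, so the size of this change is not exact. It was 4.16 within replicate 1 and 3.61 within replicates 2 and 3. Slc6a4 (counts of 1, 0 and 1 at 4.5DDC) was under that floor as well, and Tph2 (4, 3 and 6) was close to it. Gata2, Gata3 and Lmx1b were above it in all libraries. Transcripts of both neuron classes were therefore present at 6.5DDC in the sorted fraction in which the neuronal subunits were measured. At 4.5DDC this holds for the serotonergic list only in part.

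Markers of other cell types were measured as well. The summed FPKM of 6 pluripotency genes was at most 6.49, with Klf4 the most abundant at 2.26, and Pou5f1, Nanog, Zfp42 and Esrrb stayed under 1 FPKM in every library. The sum of 6 endoderm genes was highest in replicate 1 at each time point, with Gata4 the most abundant at 2.05. In replicates 1, 2 and 3 it was 4.84, 2.47 and 1.04 at 4.5DDC, 5.05, 1.59 and 2.11 at 5.5DDC, and 15, 3.45 and 2.97 at 6.5DDC. Over the whole span 0 of the 4 endoderm genes tested were called, with a median log2 fold change of 1.42. The 7 neural crest and mesenchyme genes summed in replicates 1, 2 and 3 to 6.72, 13.7 and 7.43 FPKM at 4.5DDC, 12.3, 26.0 and 23.5 at 5.5DDC, and 17.6, 34.8 and 47.3 at 6.5DDC, with Col3a1 the most abundant at 8.94, and the crest markers Sox10, Foxd3 and Tfap2a stayed under 1 FPKM. Twist1 of that list rose (log2 fold change 0.74, SE 0.19, edgeR adjusted p = 0.0276), and its adjusted p was 0.0686 without replicate 1. For Col3a1 the log2 fold change was 2.98 (SE 1.21, edgeR adjusted p = 0.112), with an adjusted p of 0.0015 without replicate 1. Replicate 1 had the lowest sum at each time point, but at 4.5DDC and 6.5DDC this was not so without Col3a1, and Twist1 (9.23, 8.25 and 7.86 FPKM in replicates 1, 2 and 3) and Pdgfra (3.96, 1.63 and 1.81) were highest in replicate 1 at 6.5DDC. The part of such cells in the members' values was not tested.

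The other 21 BAF, PBAF and ncBAF subunits serve as the comparison within the family. Of these, 2 rose and 1 fell from 4.5DDC to 6.5DDC (14.3%), with a median log2 fold change of -0.18, close to that of the members. The risers were Bcl11b, a zinc finger subunit known from neuron identity (1.58, SE 0.47, edgeR adjusted p = 0.0437), and Gltscr1l, a subunit of the noncanonical complex (0.70, SE 0.20, edgeR adjusted p = 0.0394). The faller was Smarcd1 (-0.56, SE 0.15, edgeR adjusted p = 0.0319), of whose exonic bases 12.7% overlap genes on the opposite strand, and its adjusted p was 0.0648 without replicate 1. Core subunits shared by both forms, such as Smarcb1 (-0.29, SE 0.16, edgeR adjusted p = 0.215) and Smarce1 (-0.08, SE 0.17, edgeR adjusted p = 0.771), did not pass the test.

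Bcl11a, whose product is also part of the neural complex, had a log2 fold change of 2.43 (SE 0.84, edgeR adjusted p = 0.0707; 0.0109 without replicate 1), and its FPKM was 0.0787, 0.46 and 1.45 at 4.5DDC and 1.39, 4.47 and 4.62 at 6.5DDC in replicates 1, 2 and 3. Replicate 1 was again the lowest library, as for Actl6b and Ss18l1. Over the whole span the log2 fold change was negative for 15 of the 21 other subunits.

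Of 12 known regulators of the exchange, 9 were analysed here, and 2 of them fell, with a median log2 fold change of -0.19. Ptbp1, the splicing repressor of non-neuronal cells and progenitors, fell (-1.18, SE 0.22, edgeR adjusted p = 0.00737), with FPKM of 295, 346 and 237 at 4.5DDC and of 172, 153 and 172 at 6.5DDC in replicates 1, 2 and 3, and with 20.7% of its exonic bases overlapping genes on the opposite strand. Rcor2, a corepressor of the CoREST family, also fell (-0.72, SE 0.21, edgeR adjusted p = 0.0388), with an adjusted p of 0.0593 without replicate 1. Rest, the repressor of neuronal genes and of microRNA genes that act on Actl6a, had FPKM of 17.9, 10.6 and 13.4 at 4.5DDC and of 13.4, 12.4 and 11.1 at 6.5DDC, with a log2 change of -0.19 (SE 0.25, edgeR adjusted p = 0.615). Its groups overlapped.

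C130071C03Rik, the noncoding gene at chr13:83721381-83884194 that contains Mir9-2, had FPKM of 10.2, 24.6 and 32.4 at 4.5DDC and of 14.9, 49.3 and 54.3 at 6.5DDC in replicates 1, 2 and 3. Replicate 1 was lowest at both times. The log2 fold change was 0.80 (SE 0.56, edgeR adjusted p = 0.335), and without replicate 1 the adjusted p was 0.0117. Of its exonic bases, 23.4% overlap Gm33366 on the opposite strand, and the mature microRNA was not measured.

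Among 17 other ATP-dependent remodellers, 2 rose and 4 fell over the whole span (35.3%), with a median log2 fold change of -0.09. Hells, a remodeller known for DNA methylation in dividing cells, fell most among them (-1.91, SE 0.27, edgeR adjusted p = 0.00273), followed by Chd1 (-0.72, SE 0.15, edgeR adjusted p = 0.011), Ep400 (-0.53, SE 0.12, edgeR adjusted p = 0.0181) and Srcap (-0.43, SE 0.12, edgeR adjusted p = 0.0348). Smarca1, an ISWI ATPase known from neural tissue, rose (1.47, SE 0.34, edgeR adjusted p = 0.0176), as did Chd9 (0.73, SE 0.15, edgeR adjusted p = 0.0119). Calls were thus about as frequent among other remodellers as among the BAF members, and whether the lists differ was not tested.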

How the data were processed

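The 9 libraries hold polyadenylated RNA of Prominin-1 sorted cells, 3 each from 4.5DDC, 5.5DDC and 6.5DDC. The authors mapped reads to GRCm38 with TopHat2 2.0.4 and counted them per gene with HTSeq 0.6.1. These deposited values had been taken as whole counts, but for 98 of 38197 symbols, none of them a member, they were not whole, as in estimated counts, and they were rounded. The authors computed FPKM with Cufflinks 2.1.1, and those deposited FPKM values serve as the levels here. The deposited log2 values, which the authors made with limma voom, were compared with the counts, which they matched, and left out of the tests.

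Genes were filtered with filterByExpr and scaled by TMM (factors 0.951 to 1.04), and all 9 libraries entered 1 edgeR quasi-likelihood model of the time point (R 4.3.3, edgeR 4.0.16, limma 3.58.1, DESeq2 1.42.0). Adjusted p-values follow Benjamini and Hochberg over all 14742 genes, and calls were made under 0.05. The median log2 fold change over all genes was 0.0094, 0.019 and 0.004 for the first interval, the second interval and the whole span. A total of 3 counts, the floor of detection, was 0.118 to 0.271 CPM, which leaves out all but counting error. The edgeR model was also run on simulated counts, read for the whole span alone, and no other step was run on simulated data. Tables, sequences and plots were made with Python 3.11.15, pandas 2.3.3, numpy 2.4.6 and matplotlib 3.10.9.

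The members and lists were chosen with earlier results of these data known. Genes named are the members, the members of the lists, and the 5 genes with the profile most like Actl6b and the 5 most like Actl6a among those with a mean FPKM of 2 or more and a range of at least 0.5 in log2(FPKM + 1). Symbols of these lists without values in the tables were not analysed here. Alternatives were other scalings, other filters, DESeq2, limma voom, blocks for the replicate number, limma on logged FPKM (pseudocount 1 or 0.1), models of only the 6 libraries of a comparison, each library left out, replicate 1 left out and, added after seeing the data, 5.5DDC replicates 2 and 3 summed to 1 library and the alternatives for any difference between the time points.

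Replicate numbers come from the labels, which do not say what libraries of 1 number share. Each library's deviations from the mean of its time point were therefore correlated over all genes with those of the library that carries its number at another time. Between 4.5DDC and 5.5DDC r was 0.743, 0.386 and 0.452, and between 5.5DDC and 6.5DDC it was 0.454, 0.367 and 0.197, so for these intervals the count of calls with a block is given beside that of the model, which itself has no block. Between 4.5DDC and 6.5DDC r was 0.383, -0.040 and -0.215, so the whole span was not treated as paired. Libraries of different numbers gave -0.653 to -0.123 where 1 of them was replicate 1, and 0.225 to 0.487 within replicates 2 and 3. Positions, exons and 3′ UTRs come from GENCODE M21 on GRCm38, and promoters and microRNAs from RefSeq on GRCm38.p6.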

Additional observations from a re-analysis of the deposited data

How the results depend on the processing

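No member was called in either shorter interval under any of the 23 alternatives. Over the whole span the 3 member calls became 5 with DESeq2, 0 with limma on log2(FPKM + 1) without a filter, 1 with the 6 libraries compared, 1 with 5.5DDC replicates 2 and 3 summed (an alternative chosen after seeing the data), 5 without replicate 1, and 0 to 4 with 1 library left out. With the replicate number as a block they became 5, namely Actl6b (adjusted p = 0.00782), Ss18l1 (0.0345), Smarca2 (0.0492), Smarca4 (0.0131) and Smarcc1 (0.0201), with Actl6a at 0.0561, and with a 2-level block 6. Calls over all 14742 genes also rose with the replicate number as a block, to 1913 higher and 1505 lower from 1358 and 1405. Counts over all genes moved more. From 4.5DDC to 5.5DDC the 11 calls became 25 without a filter, 495 with DESeq2, 212 with the block, 484 with the 2-level block, 1 with 6 libraries, 485 without replicate 1, 1 with the summed library and 1 to 28 with 1 library left out. From 5.5DDC to 6.5DDC the 33 calls became 55 with library totals, 78 without a filter, 671 with DESeq2, 4 and 4 with limma on filtered FPKM, 1 unfiltered, 195 with the block, 634 with the 2-level block, 0 with 6 libraries, 728 without replicate 1, 0 with the summed library and 0 to 196 with 1 library left out. Over the whole span the 2763 calls became 1791 with limma on unfiltered FPKM, 4382 with the 2-level block, 4586 without replicate 1 and 1125 (without 6.5DDC replicate 2) to 3132 with 1 library left out. For any difference, the 1420 calls became 2976 with DESeq2, 866 and 887 with limma on filtered FPKM, 597 unfiltered, 2180 with the block, 3287 with the 2-level block, 3316 without replicate 1, 756 with the summed library and 323 to 1831 with 1 library left out. Fits of fewer libraries have fewer degrees of freedom; otherwise the cause was not tested. Uncalled changes also turned in sign (values that print as 0.00 were given none). The log2 fold change of Dpf3 from 4.5DDC to 5.5DDC, 0.03, was -0.11 with limma voom, -0.21, -0.33 and -0.21 with limma on FPKM, -0.01 with either block, -0.19 with the summed library and -0.31 to 0.44 with 1 library left out. That of Phf10 from 5.5DDC to 6.5DDC, 0.10, was -0.01 with all 3 fits on FPKM. That of Dpf1 ranged with 1 library left out from -0.58 to 0.02 from 5.5DDC to 6.5DDC and from -0.58 to 0.10 over the whole span.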
